A study of Rattus norvegicus with 2 samples.

Results

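The genes described here are 10 that mark the hepatocytes around the central vein or answer to Wnt signalling in the liver: Glul, Axin2, Lgr5, Tbx3, Notum, Rnf43, Rgn, Gulo, Oat and Lect2, with cytochromes P450 left out. They were chosen by name, with earlier results of these data known. Their probes were found by matching the RefSeq transcript accession of each non-control probe on the array. All 10 had a named probe, of 13667 genes that could be named in all, and 12 probes represented them. The RNA came from liver of Sprague Dawley rats given senecionine, a pyrrolizidine alkaloid, at 35 mg/kg by the intragastric route, and was compared with liver RNA of Sprague Dawley rats given sodium chloride, both taken 36 h after dosing. For each group 3 tissue samples were pooled and hybridised to 1 one-colour (Cy3) array, so no spread between animals, no test and no p-value can be given. The labels give neither the age nor the sex of the animals, and although the design text speaks of independent experiments, 1 array per group was analysed here.

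In the liver lobule, Wnt proteins made by endothelial cells of the central vein bind Frizzled and LRP receptors on the nearest hepatocytes, and beta-catenin then enters the nucleus and works with TCF factors. This signal sets the pericentral programme, which includes glutamine synthesis and much of drug metabolism, while the periportal cells carry urea synthesis and gluconeogenesis. R-spondins raise the signal through LGR receptors, and Notum, Axin2 and Rnf43 are feedback inhibitors that the signal itself induces. Pyrrolizidine alkaloids are activated by cytochromes P450 and are known for injury to the pericentral zone and its sinusoidal endothelium.

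Between the 2 pools, the log2 ratios of the measured members ran between -3.47 and 0.64, and the 2-fold cut groups them here. Notum, Gulo, Oat and Rgn were past 2-fold in the downward direction after senecionine, and the remaining 5 that were measured on both arrays, Glul, Lgr5, Tbx3, Rnf43 and Lect2, lay within 2-fold. None was at least 2-fold higher, and Glul was the single member with a ratio above 0. Of 9 measured members 4 (44.4%) were thus at least 2-fold lower, against 17.7% of the 7803 named genes measured on both arrays (1379 genes). The share at least 2-fold higher was 11.2% of those genes (876). The median log2 ratio (senecionine minus control) was -0.80 over the 9 members and -0.14 over the 7803 genes. A gene counts here as measured where the scanner software called at least 1 of its probes well above background on both arrays, and the brightest of those stands for it. In tissue RNA, fewer cells of a type and less RNA per cell cannot be told apart.

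Both arrays had 43379 non-control spots, and the senecionine array had 64.1% of them well above background, the control array 44.4%. The 75th percentile of their processed intensity was 134 intensity units on the senecionine array and 101 on the control array. Ratios are given after each array was divided by this percentile, so that a probe of equal intensity on both arrays has a log2 ratio 0.41 below 0. The error given beside a ratio is the scanner software's own spot error carried to the log2 scale. It is technical error within the arrays, with a median of 0.21 over the 7803 genes, and the number of arrays limits the precision. Of 8 hepatocyte markers 5 had a named probe, and all 5, among them albumin (Alb), were well above background on both arrays. Of these 5, 3 were at least 2-fold lower after senecionine, with a median log2 ratio of -1.14 that lies below the members' median of -0.80. With quantile normalization or cyclic loess 2 were lower, and with normexp correction 1. The lowest were Apoc3, an apolipoprotein that hepatocytes secrete (-2.08 ± 0.20), and Hnf4a, a transcription factor of hepatocyte identity (-1.37 ± 0.21). The part of this general difference in hepatocyte genes in the members' values was not tested. Alb had intensities of 55952 in the senecionine pool and 92727 in the control pool, a log2 ratio of -1.14 ± 0.20, which shrank to -0.64 under cyclic loess. Markers of neural cells were also present, most of them lower after senecionine. Of 7 oligodendrocyte markers all were measured, 5 at least 2-fold lower, with a summed scaled signal (in units of the 75th percentile) of 2.69 on the senecionine array and 23.1 on the control array. Of 7 astrocyte markers 4 were measured, 3 at least 2-fold lower and Gja1, a gap junction gene of many cell types, 5.49-fold higher. Their summed scaled signal was 15.6 on the senecionine array and 9.87 on the control array. The defining marker Gfap was detected in the senecionine pool alone, with no fold above 1. Of all named genes 19.1% were likewise detected there alone. Of 7 neuron markers with a named probe the senecionine array detected 3 and the control array 5, and over the 2 measured on both, Tubb3 and Nefl, the summed scaled signal was 2.88 on the senecionine array and 56.5 on the control array. Glul is known from astrocytes as well as from pericentral hepatocytes, and the part of neural RNA in the values below was not tested.

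**Figure D1:**
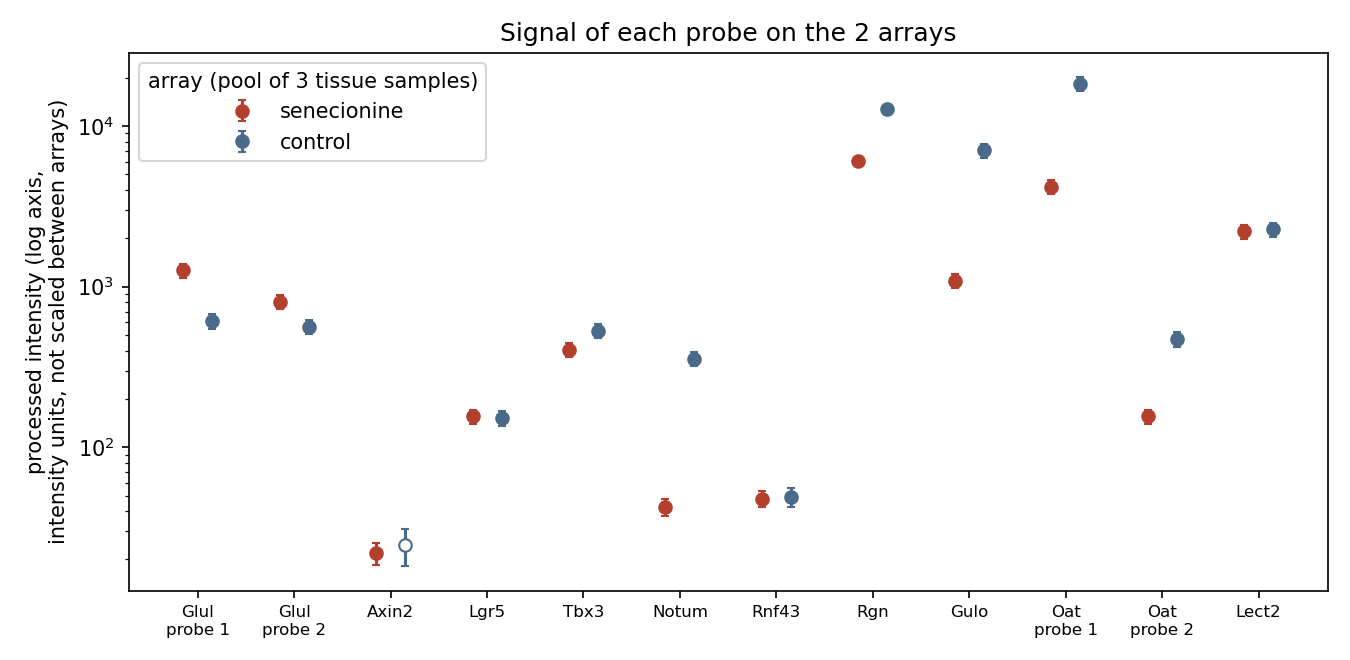
Processed intensity of the 12 probes on a log axis, with the senecionine array on the left and the control array on the right of each pair. Bars are the scanner software's spot error, and the open circle is the Axin2 signal that was not well above background. The intensities are not scaled between arrays, and levels of different probes cannot be set against each other. The widest gaps are those of Notum (42.4 with senecionine, 355 in control), Gulo (1090 with senecionine, 7084 in control) and the Oat probes.

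The feedback inhibitors of the pathway differed from each other. Notum, a secreted enzyme that removes the lipid from Wnt proteins and so inactivates them, had an intensity of 42.4 ± 4.97 in the senecionine pool and 355 ± 35.8 in the control pool. The senecionine signal was thus far below the control one, by 11.1-fold after scaling (log2 ratio -3.47 ± 0.22), a distance of 15.6 spot errors. It was still a measured signal: the median pixel signal of the spot was 92 on the senecionine array, where the negative control spots had a median of 47, and 430 on the control array, where they had 50. Among the 7803 genes, 65 (0.833%) had a lower ratio than Notum. With normexp background correction, which compresses dim signals, the log2 ratio of Notum shrank to -2.30.

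Rnf43, a membrane ubiquitin ligase that removes Frizzled receptors from the cell surface, had intensities of 47.8 ± 5.28 in the senecionine pool and 49.2 ± 6.62 in the control pool. The intensities overlapped within their errors, and the log2 ratio was -0.45 ± 0.25, of which the scaling between arrays makes 0.41. Of all measured genes 36.2% had a lower ratio. Axin2, a scaffold of the complex that degrades beta-catenin and a widely used reporter of the signal, stood close to background. It had 21.8 ± 3.42 intensity units in the senecionine pool and 24.5 ± 6.32 in the control pool. Its probe was well above background in the senecionine pool alone, a state shared by 2610 of the 13667 named genes (19.1%). The lowest intensity called well above background was 10.8 on the senecionine array and 20.6 on the control array, and the scaled Axin2 signal was no higher in the senecionine pool than in the control pool. No fold is given for Axin2, and a difference was not detectable at this signal. Of the 3 feedback inhibitors, Notum was thus the one with a difference of 2-fold or more.

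Lgr5, a receptor for R-spondins that marks pericentral hepatocytes, gave 156 ± 15.7 intensity units in the senecionine pool and 152 ± 15.8 in the control pool. These overlap within error before scaling, and after scaling the log2 ratio was -0.37 ± 0.21, or 1.8 spot errors below 0. Tbx3, a T-box transcription factor and Wnt target in hepatocytes, had 404 ± 40.4 intensity units in the senecionine pool and 529 ± 53.1 in the control pool. The senecionine signal was the lower one, with a log2 ratio of -0.80 ± 0.20 (1.74-fold), and of all measured genes 23.3% had a lower ratio. Across the 4 other scalings and background corrections its ratio ran between -0.92 and -0.51, so Tbx3 lay within 2-fold under each. Tbx3, Lgr5 and Rnf43 all had ratios below 0, but the median gene did too, and Lgr5 and Rnf43 lay 0.24 and 0.31 below that median.

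**Figure D2:**
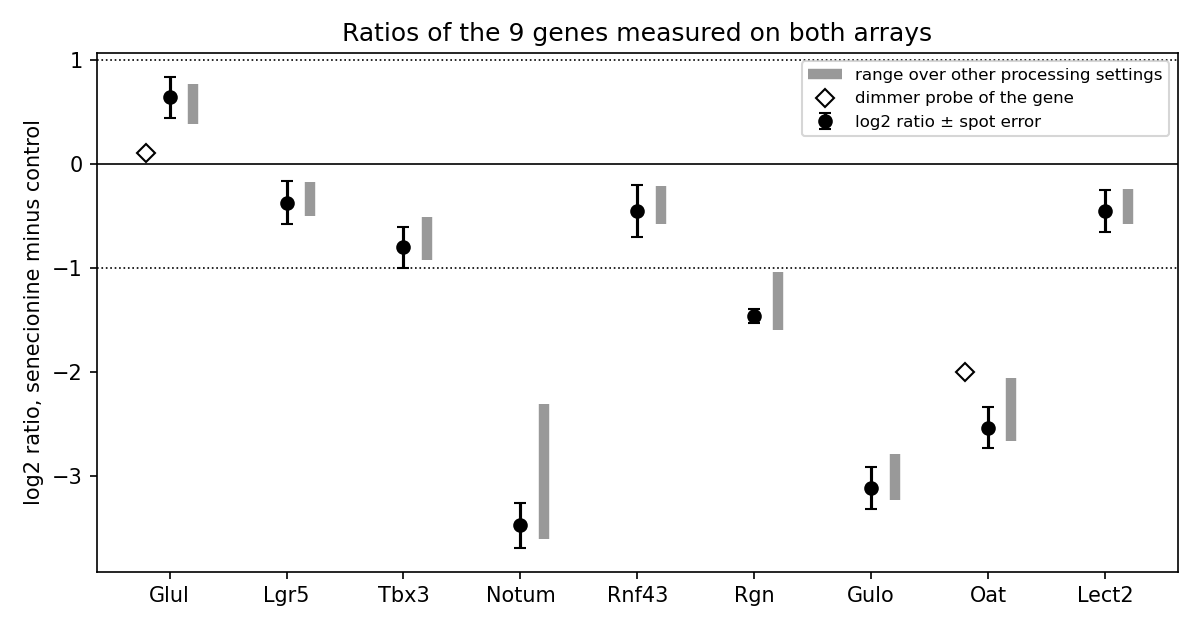
Log2 ratio (senecionine minus control) of the 9 members measured on both arrays. Black circles are the main values with the spot error, open diamonds the dimmer probe of Glul and of Oat, and grey bars the range over the other processing settings. Dotted lines mark 2-fold. Notum, Rgn, Gulo and Oat lie below the lower line under each setting tried, and Glul lies above 0 under each that measured it. Among the settings, the authors' table lists only probes past 2-fold.

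Glul, glutamine synthetase, which captures ammonia in the last hepatocytes before the central vein, was measured by 2 probes for the same transcript accession. The brighter gave 1262 ± 126 intensity units in the senecionine pool and 610 ± 61.2 in the control pool, a log2 ratio of 0.64 ± 0.20 (1.56-fold higher). The other gave 804 ± 80.5 in the senecionine pool and 563 ± 56.4 in the control pool, a log2 ratio of 0.11 ± 0.20. Both intensities were higher in the senecionine pool, but after scaling the second ratio was smaller than its error, and the probes differ from each other by more than the error of either. Glul was therefore not lower by either probe. Of all measured genes 19.2% had a higher ratio than its brighter probe.

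Oat, ornithine aminotransferase, a mitochondrial enzyme that turns ornithine towards glutamate in pericentral cells, was also covered by 2 probes. The brighter had 4192 ± 419 intensity units in the senecionine pool and 18280 ± 1828 in the control pool, and the dimmer 156 ± 15.7 in the senecionine pool and 471 ± 47.3 in the control pool. Both were clearly lower after senecionine, at log2 ratios of -2.53 ± 0.20 (5.78-fold) and -2.00 ± 0.21 (4.01-fold). Among all measured genes 2.37% had a lower ratio than the brighter probe. Glul and Oat, which lie in the same zone and next to each other in glutamate metabolism, thus stood on opposite sides of the median gene.

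Other genes of glutamine, glutamate and ornithine handling also went both ways. Of 10 measured, 4 were at least 2-fold lower and 2 higher, with a median log2 ratio of -0.68, while 3 were lower with normexp correction and 5 with median scaling. The lowest was Otc, ornithine transcarbamylase of the urea cycle, which competes with Oat for ornithine, at -2.13 ± 0.20. The highest was Odc1, ornithine decarboxylase of polyamine synthesis, at 1.97 ± 0.21, with 2.76 on its other probe. Aldh4a1, the mitochondrial dehydrogenase that yields glutamate from the product shared by the ornithine and proline routes, had a log2 ratio of -1.83 ± 0.20. The glutamine carriers differed: Slc38a3, the main system N transporter of liver, had -1.60 ± 0.20, and the stress-inducible Slc38a2 had 1.20 ± 0.20. Rhbg, an ammonia transporter of pericentral cells, had intensities of 354 in the senecionine pool and 286 in the control pool and a log2 ratio of -0.10 ± 0.21, smaller than its error and above 0 under some scalings. Slc1a2, a glutamate carrier of pericentral hepatocytes and of astrocytes, had 63.1 intensity units in the senecionine pool and 105 in the control pool, at a log2 ratio of -1.14 ± 0.22 that shrank to -0.76 with normexp correction.

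Rgn and Gulo belong to vitamin C synthesis, which rats carry out in the liver. Rgn, regucalcin, acts as the gluconolactonase that forms the substrate of Gulo, and Gulo, L-gulonolactone oxidase, makes the last step. Gulo had 1090 ± 109 intensity units in the senecionine pool and 7084 ± 708 in the control pool. It was 8.62-fold lower after senecionine (log2 ratio -3.11 ± 0.20), and 94 genes, 1.2% of those measured, had a lower ratio.

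The Rgn probe was spotted 10 times on each array, which shows the spread within an array. Its 10 spots ran between 5048 and 6414 intensity units, with a median of 6059, on the senecionine array, and between 8411 and 13974, with a median of 12541, on the control array. The spots of the arrays did not overlap. The scanner software flagged 1 of them as an outlier on the senecionine array and 3 on the control array, and the 2 lowest control spots were among these. Without flagged spots the log2 SD within an array was 0.04 over 9 spots on the senecionine array and 0.10 over 7 on the control array. The log2 ratio was -1.46 ± 0.07 (2.76-fold lower), where the small error reflects averaging over spots of the same RNA and not over animals. Taken position by position over the 7 positions unflagged on both arrays, it ran between -1.62 and -1.28. Across the 4 other scalings and background corrections the Rgn ratio ran between -1.59 and -1.15, a wider range than its spot error.

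**Figure D3:**
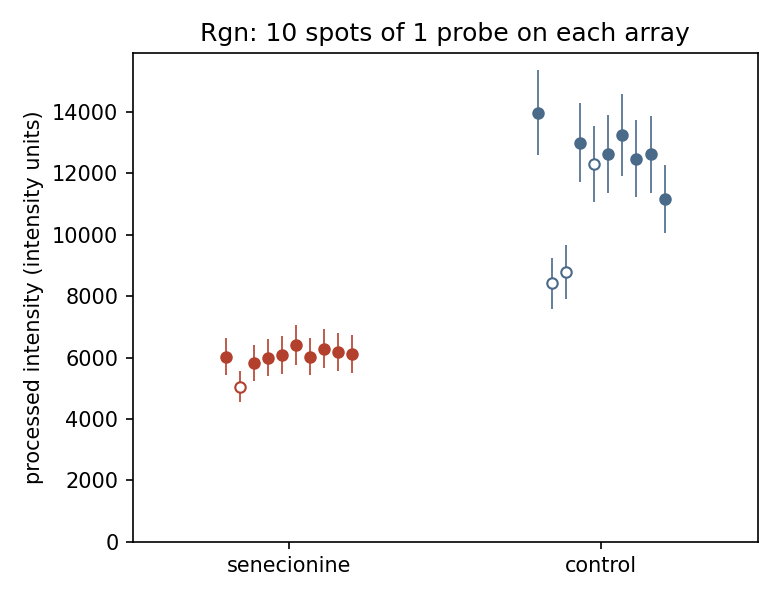
Processed intensity of the 10 spots of the Rgn probe on the senecionine array (left) and the control array (right), in the same order of positions. Bars are the spot error and open circles are spots flagged as outliers. The senecionine spots lie between 5048 and 6414 and the control spots between 8411 and 13974.

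The remaining genes of ascorbate synthesis and transport were mostly closer to the median gene. Of 4 measured on both arrays 1 was at least 2-fold lower and 0 were higher. That gene was Slc23a1, the sodium-dependent ascorbate carrier of epithelia, with 226 intensity units in the senecionine pool and 748 in the control pool (log2 ratio -2.14 ± 0.21). The upstream enzymes had smaller ratios: Ugp2, which makes UDP-glucose, had -0.60 ± 0.20, the aldehyde reductase Akr1a1 -0.38 ± 0.20, and the UDP-glucose dehydrogenase Ugdh -0.06 ± 0.20. In the order of the route, the 2 last steps, Rgn and Gulo, thus had lower ratios than the 3 earlier enzymes, which were all within 2-fold.

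Lect2, a protein that hepatocytes secrete and that is known as a target of beta-catenin in liver, had 2215 ± 222 intensity units in the senecionine pool and 2281 ± 228 in the control pool. The intensities overlapped within error, and the log2 ratio of -0.45 ± 0.20 was 0.31 below the median gene. Quantile normalization brought it to -0.24. Lect2 thus lay within 2-fold, unlike Rgn, Gulo and Oat among the metabolic and secreted products described here.

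When the measured genes were ordered by mean signal and cut into 10 groups of equal size, which was done after the values were known, Rgn, Gulo and Oat were all in the brightest group of 781 genes. In that group 26.9% of genes were past 2-fold downward and 5.76% upward, and the median log2 ratio was -0.38. The log2 ratios of Rgn (-1.46), Oat (-2.53) and Gulo (-3.11) lay below that median too. Notum was in a dimmer group of 780 genes, of which 14.1% were past 2-fold downward, with a median of 0.04. In the authors' deposited table, which lists probes with an absolute log2 difference of at least 1.0001 between the arrays, 5 member probes appear, those of Notum, Rgn, Gulo and both of Oat. Their log2 differences in the authors' deposited table were -3.51 for Notum, -1.04 for Rgn, -2.88 for Gulo, and -2.05 and -1.97 for the brighter and dimmer Oat probes. Those of Rgn, Gulo and both Oat probes are closer to 0 than the values found here, and that of Notum is slightly farther from 0.

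**Figure D4:**
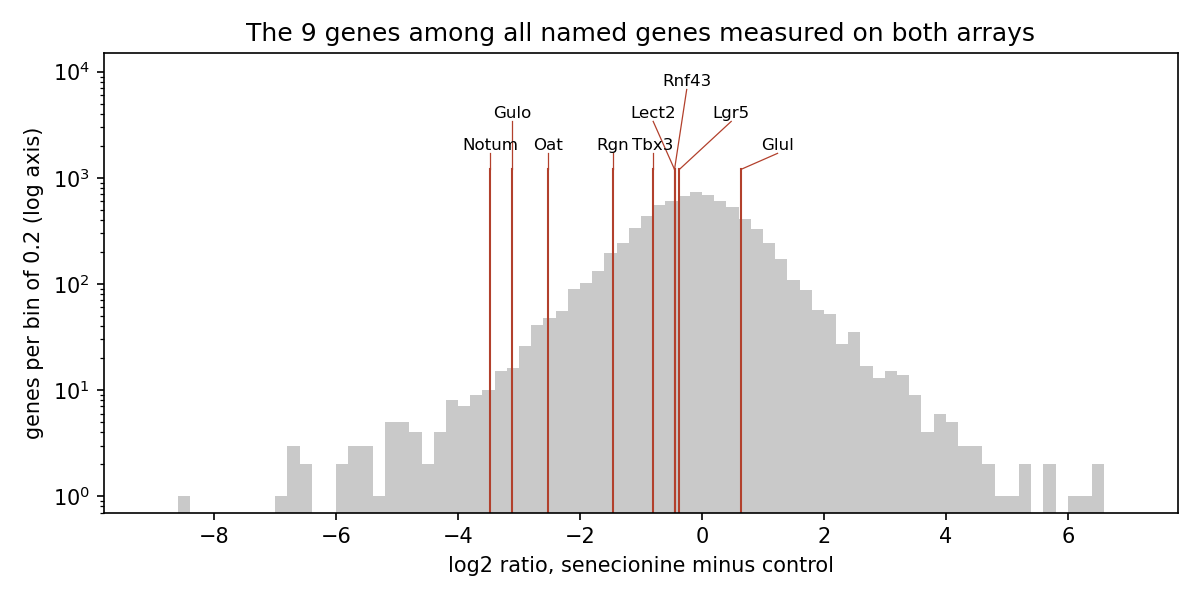
Distribution of the log2 ratio (senecionine minus control) over the 7803 named genes measured on both arrays, in bins of 0.2 on a log count axis, with the 9 members as red lines. Notum, Gulo and Oat lie in the lower tail, where 0.833%, 1.2% and 2.37% of genes have lower ratios. Lgr5, Rnf43 and Lect2 lie close to the median of -0.14.

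Because TCF factors bind a short core motif in many Wnt target genes, the stretches of 250 bases before the gene starts of RefSeq (assembly GRCr8) were searched on both strands for CTTTG followed by a pair of bases that are each A or T, which gives 4 motifs. Of the 10 members 6 had an entry, with 7 windows in all, since Glul has 2 starts, and 3 windows held a match. Over all 33469 windows in RefSeq, 14.9% held at least 1 of the 4. Axin2 had 2 matches, which begin 232 and 132 bases before the start, and 1 window of Glul and the window of Lect2 had 1 each on the opposite strand, beginning 230 and 68 bases before the start. The windows of Oat and Rgn, whose transcripts were at least 2-fold lower, are shown beside them and held none. The other window of Glul and the window of Rnf43, both genes within 2-fold, held none either and are not shown. Lgr5, Tbx3, Notum and Gulo had no entry. Whether a match goes with the ratio of a gene was not tested. Matches are in capitals, none overlaps another, and each sequence reads 5′ to 3′ towards the gene. A match is a description of these letters and does not show binding.
Axin2 (chr10:94398535-94398784, plus strand): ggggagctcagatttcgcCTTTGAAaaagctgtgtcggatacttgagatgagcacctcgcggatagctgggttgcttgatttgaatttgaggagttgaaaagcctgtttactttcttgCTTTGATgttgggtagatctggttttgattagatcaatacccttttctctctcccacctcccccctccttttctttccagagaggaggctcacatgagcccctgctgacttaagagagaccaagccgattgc
Glul (chr13:68519250-68519499, plus strand): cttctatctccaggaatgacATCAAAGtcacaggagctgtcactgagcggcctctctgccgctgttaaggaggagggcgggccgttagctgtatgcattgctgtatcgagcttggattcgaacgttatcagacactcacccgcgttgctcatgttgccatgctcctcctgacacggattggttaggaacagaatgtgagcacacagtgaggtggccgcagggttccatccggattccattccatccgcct
Lect2 (chr17:8049784-8050033, plus strand): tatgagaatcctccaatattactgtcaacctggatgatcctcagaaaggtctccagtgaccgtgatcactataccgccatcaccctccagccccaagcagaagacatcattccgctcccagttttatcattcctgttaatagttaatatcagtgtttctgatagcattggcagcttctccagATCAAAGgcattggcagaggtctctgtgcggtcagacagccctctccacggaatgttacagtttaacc
Oat (chr1:196797755-196798004, minus strand): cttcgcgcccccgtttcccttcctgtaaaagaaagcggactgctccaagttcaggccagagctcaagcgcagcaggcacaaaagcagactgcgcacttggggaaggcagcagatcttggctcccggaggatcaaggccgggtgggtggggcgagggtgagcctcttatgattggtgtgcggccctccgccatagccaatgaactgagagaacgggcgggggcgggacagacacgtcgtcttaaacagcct
Rgn (chrX:4187958-4188207, minus strand): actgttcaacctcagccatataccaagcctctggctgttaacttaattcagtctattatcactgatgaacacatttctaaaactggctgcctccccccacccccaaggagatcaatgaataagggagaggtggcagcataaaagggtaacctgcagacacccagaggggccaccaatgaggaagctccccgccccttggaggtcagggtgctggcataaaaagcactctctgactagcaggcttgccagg

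Many of the other genes of the Wnt pathway were not measured on both arrays. For the counts below, the shares over all 7803 measured genes were 17.7% at least 2-fold lower and 11.2% at least 2-fold higher. Among ligands, R-spondins and the secretion machinery 5 of 19 genes with a named probe were measured, 2 at least 2-fold lower and 1 higher. Wls, the carrier that brings Wnt proteins to the cell surface, had 459 intensity units in the senecionine pool and 124 in the control pool, a log2 ratio of 1.48 ± 0.21, with 0.88 on its other probe. Porcn, the enzyme that attaches the lipid to Wnt proteins, had 663 in the senecionine pool and 1180 in the control pool, a log2 ratio of -1.24 ± 0.20, with -1.28 on its other probe. Wls and Porcn, which act in the same route of Wnt secretion, thus stood on opposite sides. The ligands were close to background: Wnt7a had 34.6 intensity units in the senecionine pool and 54.4 in the control pool (log2 ratio -1.06 ± 0.31), and Wnt1 20.4 in the senecionine pool and 24.7 in the control pool (-0.69 ± 0.39). With normexp correction no gene of this list was at least 2-fold lower, and Porcn had -0.78. With cyclic loess 3 were, with Wnt1 at -1.05. The R-spondin Rspo3, known from central vein endothelium, was detected in the senecionine pool alone, with no fold above 1. Wnt9b was not well above background on either array, and Wnt2 had no named probe.

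Receptors and membrane regulators showed no difference of 2-fold among 5 measured. The largest were those of the Frizzled receptor Fzd1 (-0.83 ± 0.20), the Wnt-binding kinase Ryk (0.82 ± 0.22, other probe 0.68) and the co-receptor Lrp5 (-0.70 ± 0.22). Lgr4, the R-spondin receptor found across the lobule, had 321 intensity units in the senecionine pool and 251 in the control pool. Its log2 ratio of -0.05 ± 0.21 was smaller than its error and changed sign among scalings. Of the secreted inhibitors, Sfrp5 alone was measured, at -0.58 ± 0.22, and 4 others were detected in the senecionine pool alone, with bounds under 2-fold.

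Inside the cell, beta-catenin (Ctnnb1) had 382 intensity units in the senecionine pool and 161 in the control pool, a log2 ratio of 0.84 ± 0.21 (1.79-fold higher). Of the 9 measured genes in its list 1 was at least 2-fold lower and 1 higher, with a median of 0.18. The lower was the signal relay Dvl1 (-1.26 ± 0.20) and the higher Tnks2 (1.15 ± 0.20), a tankyrase that marks Axin proteins for degradation. The scaffold Axin1 had -0.59 ± 0.20 and the kinase Gsk3b 0.18 ± 0.07. Among TCF partners 1 of 5 measured was at least 2-fold lower, the corepressor Tle2 (-1.52 ± 0.21). Tle3, another corepressor, was detected in the senecionine pool alone, where it was higher by at least 3.1-fold.

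Other genes known as Wnt targets in further tissues had ratios unlike that of Notum. Cd44, an adhesion receptor also carried by leukocytes, had 3174 intensity units in the senecionine pool and 122 in the control pool, 19.6-fold higher (log2 ratio 4.29 ± 0.21). Myc, a growth-promoting transcription factor, had 2393 in the senecionine pool and 287 in the control pool, at 2.65 ± 0.06. The cyclin Ccnd1 had 889 in the senecionine pool and 752 in the control pool, a log2 ratio of -0.17 ± 0.20 that is within its error. All of these have regulators other than beta-catenin.

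**Figure D5:**
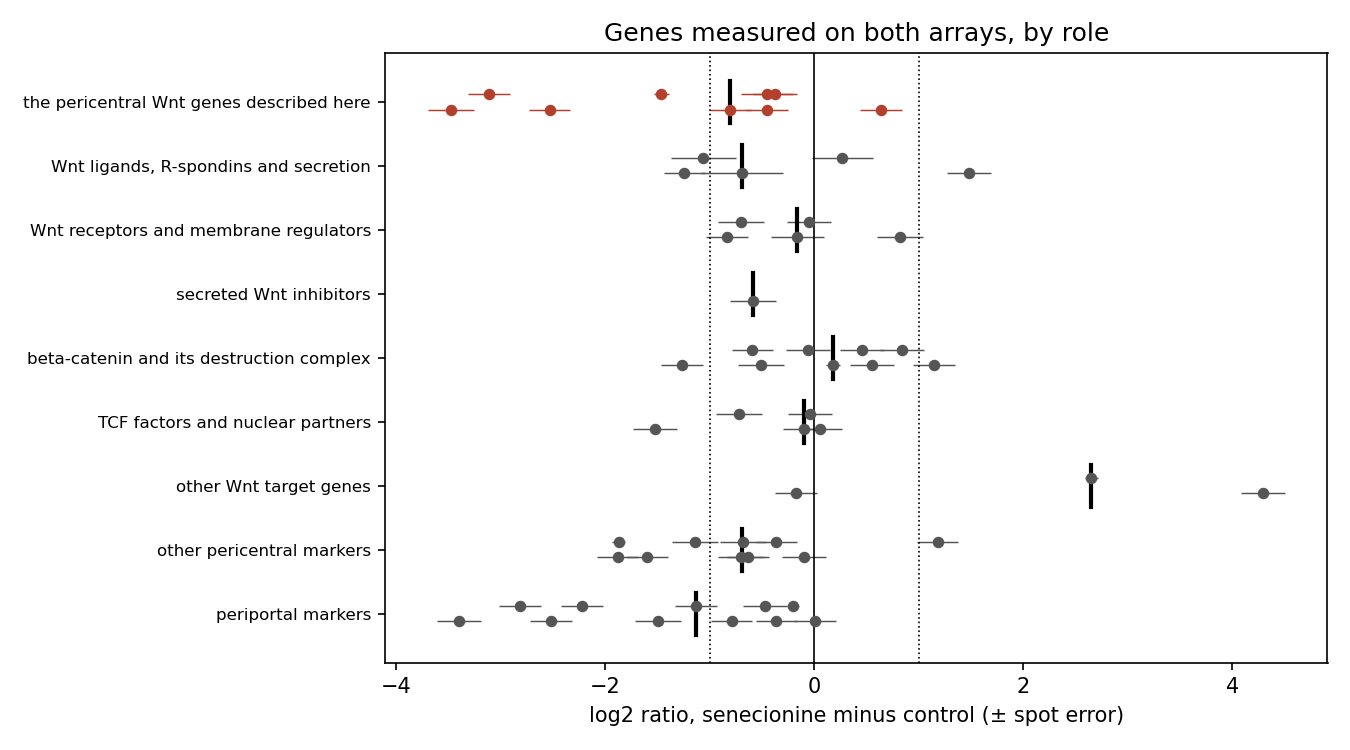
Log2 ratio (senecionine minus control, with spot error) of genes measured on both arrays, by list, with the median of each list as a black bar and 2-fold as dotted lines. The members (red) have a median of -0.80. Further pericentral markers have a median of -0.69 and periportal markers of -1.13, and the widest positive values are those of Cd44 and Myc.

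Pericentral markers outside the 10 members had 4 of 10 measured at least 2-fold lower, 1 higher and a median log2 ratio of -0.69. The lower ones included the phosphatase Lhpp (1216 intensity units in the senecionine pool and 3386 in the control pool, -1.88 ± 0.20), the vasopressin receptor Avpr1a (-1.87 ± 0.06) and the fatty aldehyde dehydrogenase Aldh3a2 (-1.60 ± 0.20). Aldh1a1, a retinaldehyde dehydrogenase, was the higher one, with 7748 in the senecionine pool and 2581 in the control pool (1.18 ± 0.20). The amino acid carrier Slc1a4 was detected in the senecionine pool alone, where it was higher by at least 5.09-fold. On the periportal side 6 of 11 measured were at least 2-fold lower, 0 were at least 2-fold higher, and the median was -1.13, but 4 were lower with normexp correction. The lowest were the amino acid enzymes Sds (-3.40 ± 0.21), Ass1 (-2.81 ± 0.20), Hal (-2.52 ± 0.20) and Ftcd (-2.22 ± 0.20). Whether the zones differ was not tested, since 1 array per group gives no error for such a difference.

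Endothelial markers were listed as well, most of them general or sinusoidal, so that they do not single out the central vein. Of 10 measured, 4 were at least 2-fold lower and 1 higher, with a median of -0.60 and a summed scaled signal of 52.4 on the senecionine array and 124 on the control array. The lower were Dnase1l3, a secreted nuclease (-4.37 ± 0.21), the mannose receptor Mrc1 (-2.90 ± 0.21), the VEGF receptor Kdr (-2.89 ± 0.20) and Oit3 (-2.04 ± 0.21), and the higher was thrombomodulin, Thbd (1.48 ± 0.21). The part of endothelial RNA in the values of the members was not tested.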

How the data were processed

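Liver RNA was labelled with Cy3 and read on 2 one-colour Agilent arrays, 1 per group. Per the file headers and the submitters' processing notes, the authors used Agilent Feature Extraction 10.7.3.1 to obtain the deposited intensity of each spot, with background subtraction and detrending within each array. The authors' deposited log2 table holds 7404 probes. How it was scaled was not given in the sources used here. All 7355 of its probes compared here have the same sign as the scanner ratios (Pearson r = 0.994 across probes, not independent replicates), and its column medians are 6.10 for senecionine and 6.03 for control. Since that table leaves out small differences of the same 2 arrays, the shared sign and the r are a weak check.

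Here log2 of the processed intensity was centred on the 75th percentile of the non-control spots of its array. Control spots and outlier-flagged spots were left out (497 on the senecionine array, 522 on the control array), and spots of a probe were averaged on the log2 scale, which gave 40516 probes. A probe with several spots is well above background where most kept spots are. Of these probes 17250 were named through unversioned RefSeq accessions in the GRCr8 gene table. The array was designed on rn4, so coordinates are given for the RefSeq promoter windows alone, in GRCr8.

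A difference is called at 2-fold. A gene well above background on 1 array has at most a lower bound, its signal over that of the same probe on the other array or, where higher, over the dimmest signal called well above background there. The error of a probe is the spot error divided over its spots. The counting was tested on simulated data made from the control array alone. That simulation did not cover the difference in detection between the arrays. Beside the members, genes were named from up to 4 measured genes of each list with the largest absolute ratio, 15 picked for their role, and those with a bound of at least 2-fold. Thbd, Slc38a2 and Gfap lie outside this rule and were named after their values were seen. Members, lists and rules were chosen with earlier results of these data known. Alternatives were median, quantile and cyclic loess scaling, normexp correction of the median spot signal (offset 50), other filters and probe rules, thresholds of 1.5-fold and 4-fold, and the authors' values. Tools were limma 3.58.1 in R 4.3.3, and pandas 2.3.3, numpy 2.4.6 and matplotlib 3.10.9 in Python 3.11.15.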

Additional observations from a re-analysis of the deposited data

How the results depend on the processing

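Under the 4 other scalings or background corrections, Notum, Gulo, Oat and Rgn were at least 2-fold lower and no member at least 2-fold higher. The same held with both other filters, with the mean over probes and with flagged spots kept. The authors' table holds these 4 members alone, all of them lower. It lists no probe with an absolute log2 difference below 1.0001, so passing 2-fold there was fixed by that choice. At 1.5-fold, 5 members were lower and 1 was higher (Glul), and at 4-fold, 3 were lower. The members' median log2 ratio was -0.51 with normexp correction and -2.47 in the authors' table, where the choice of probes fixes it. The median of all genes was -0.26 with median scaling, against -0.14, and member ratios shift with it.

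The number of genes at least 2-fold lower was 761 with normexp correction and 3000 with no filter on dim probes, and the number higher was 2394 with no filter, 2389 when detection on 1 array was enough and 2032 in the authors' table. At 1.5-fold 2424 genes were lower and 1642 higher, and at 4-fold 361 were lower and 213 higher. When detection on 1 array was enough, 22.6% of genes were higher and 14.7% lower, so the split of all genes turns with that filter. No paired analysis was possible because each group has 1 array, and for the same reason no array could be left out. Signal over background limits Axin2, Rnf43, the Wnt ligands and the size of the Notum ratio, which was -2.30 with normexp correction against -3.47.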

Other observations

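Probes of 1 gene did not always agree among the partners of beta-catenin. Ctnnbip1, which blocks the binding of beta-catenin to TCF factors, had a log2 ratio of -0.10 ± 0.20 on its brightest probe, 459 intensity units in the senecionine pool and 372 in the control pool, but -2.12 and -0.20 on its other probes. Pygo2, a nuclear cofactor, had 0.06 ± 0.21 on the brighter probe and -1.37 on the other. Of the 2 members with more than 1 probe, Glul and Oat, only Glul has probes that differ in whether the ratio exceeds its error.

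The share of genes at least 2-fold lower was 27.8% in the dimmest of 10 equal groups by mean signal and 26.9% in the brightest, and between 12.9% and 20.8% in the groups between them. No member was in the dimmest group.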
